A study of Mus musculus with 23 samples.

Results

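RNA of tdTomato+ cells sorted from mouse lungs early in tumorigenesis was compared between 6 and 2 weeks post-initiation (p.i.). By their labels, 10 of the 23 libraries of the series enter this comparison, 7 at 6 weeks and 3 at 2 weeks p.i., each from the lung of a mouse of mixed genetic background. All 10 mice carried 1 Braf CAT allele (labelled CAT/+), which CRE converts to expression of BRAFV600E and of tdTomato from the Braf promoter. There were 4 libraries of this genotype alone (BRAF tumors), 1 at 2 weeks and 3 at 6 weeks p.i. The other 6 also carried the CRE-activated Pik3ca allele that encodes PI3KαH1047R (labelled HR/+, BRAF/PI3K tumors), 2 at 2 weeks and 4 at 6 weeks p.i. Adult mice were infected with an adenovirus in which the Sftpc promoter drives CRE, at the same titer for both time points, so that recombination was aimed at alveolar type 2 (AT2) cells. No uninfected or normal lung cells were part of the table, the Braf CAT line came from a single embryonic stem cell clone, and whether some libraries came from littermates is not given in the sources used here. The BRAF group at 2 weeks is a single library, so it has no replicate check of its own.

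The distal lung epithelium holds AT2 cells, which make surfactant and renew the alveolus, and flat alveolar type 1 (AT1) cells, across which gas exchange takes place and which derive from AT2 cells. BRAFV600E signals through MEK and ERK, and PI3Kα through AKT. In AT2 cells BRAFV600E first gives scattered hyperplasia that grows into benign adenomas, with a burst of division followed by arrest with features of senescence. The comparison of 6 with 2 weeks asks which genes changed between the first lesions and the growing tumors.

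Values are normalized counts as deposited. Differences are on the log2(normalized count + 1) scale, 6 over 2 weeks, adjusted for genotype, with the standard error (SE) of limma's fit. They understate the change of genes with low values. Of the genes in the table, the 17501 whose mean over the 10 libraries reached 10 normalized counts were tested, and a gene was called where its p, adjusted over all of them by Benjamini-Hochberg, was under 0.05. The normalized counts of a library summed to between 16433820 and 20287296, 19803 to 21594 genes were above 0, and pairs of libraries correlated at 0.804 to 0.923 (log2 values). Reads could not be recovered from the table, since only 10.5% to 41.3% of the low values of a library were whole multiples of its step (tolerance 0.01), so depth is unknown. Y-linked genes matched the labelled sex in all 10 libraries. At 2 weeks the BRAF library was female and both BRAF/PI3K libraries male, so a genotype difference there cannot be told apart from one of sex. At 6 weeks replicates 1 and 2 of each genotype were female. BRAF replicate 3 and BRAF/PI3K replicates 3 and 4 were male. Sex was therefore not balanced between the weeks either, least of all in BRAF/PI3K tumors.

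The libraries differed in markers of cells that the sort was not aimed at. Pecam1 and Cdh5, adhesion genes of endothelium, ran from 1286 to 16970 and from 1384 to 24390, and the epithelial adhesion gene Epcam ran from 220.8 to 2961. None of the 24 endothelial markers examined was at 0 in any library. Their summed level was 20123 in the BRAF library at 2 weeks and 39224 to 150794 in BRAF tumors at 6 weeks, but 176137 to 199719 in BRAF/PI3K libraries at 2 weeks. At 6 weeks, BRAF/PI3K replicate 1 had 297127 where the other 3 had 51917 to 72187. Its log2 values correlated at 0.922 with BRAF/PI3K 2 week replicate 2, against 0.858 to 0.879 with the other libraries of its own group. The median log2 difference of endothelial markers with time therefore had opposite signs in the 2 genotypes (1.85 in BRAF and -1.01 in BRAF/PI3K tumors). The BRAF value rests on a single library at 2 weeks, and replicate 1 goes against the BRAF/PI3K value. The difference between genotypes was not tested for the list. Each result is given with all 10 libraries, and again without BRAF/PI3K 6 week replicate 1 where that changes a call. That library was picked out by its values, which lay near those of a 2 week library. Calls made without it are therefore no independent test. A fit with the endothelial score (the mean log2 value of the 24 markers) as a covariate was added after seeing the data. With genotype in the fit these markers differed little with week (median 0.02), so the covariate could hardly alter the size of any difference, only its SE, and calls made with it are no test of the part of endothelial RNA. In sorted cells measured in bulk, fewer cells of a type and less RNA per cell cannot be told apart.

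Across all 17501 genes, 1 passed the adjusted threshold (0.00571%). At an unadjusted p under 0.05 there were 1013 higher at 6 weeks (5.79%) and 958 lower (5.47%). All 7 libraries at 6 weeks lay above all 3 at 2 weeks for 256 genes (1.46%) and below them for 282 (1.61%). The median difference over all genes was 0.01, and 51.2% of genes were higher at 6 weeks. These shares are the background for every count given below. Without the BRAF library at 2 weeks 13 genes were called, of which 12 were higher. Without BRAF/PI3K 6 week replicate 1, 10 genes were called higher (0.0571%) and 5 lower (0.0286%) of 17499. With the endothelial score as a covariate 232 were called higher (1.33%) and 208 lower (1.19%), and these held 14 of the 15 called without that library. Below, rose and fell are used only of genes that passed the adjusted test of the comparison named. Of the genes named, 25 come from a rule and the rest were chosen after their values were seen.

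The single gene that rose was Gm14681, a processed pseudogene at chrX:66778442-66778852 (minus strand, GRCm38). It had 41.6 normalized counts in the BRAF library at 2 weeks and 78.3 and 43.1 in the BRAF/PI3K libraries. At 6 weeks the BRAF libraries had 511, 376 and 295 and the BRAF/PI3K libraries 436, 295, 319 and 452. The groups did not overlap, and the difference was 2.84 ± 0.32 (SE, limma adjusted p = 0.0385). The call was lost when sex was a covariate (limma adjusted p = 0.111) and with a replicate block (0.793). Testing all genes with any count (0.0546) or leaving out any of 7 single libraries lost it too. In the latter fits limma's adjusted p lay between 0.0548 without the BRAF library at 2 weeks and 0.175 without BRAF 6 week replicate 2. The gene is shown because its identity is uncertain. Of the 411 bases of its transcript, 396 (96.4%) match the transcript of Npm1, a nucleolar chaperone of ribosome assembly, without gaps, and 83.5% of its 31-base stretches also occur in Npm1. In this ungapped alignment the differences cluster at its 5′ end. The sequence there is repetitive, and most of them disappear if a gap is allowed, so they do not show that this end has diverged. The stretches below run from base 1 to 60 of Gm14681 and from base 696 to 755, in the coding sequence, of Npm1 (GENCODE vM21, 5′ to 3′), with the 13 differing bases in capitals.
Gm14681: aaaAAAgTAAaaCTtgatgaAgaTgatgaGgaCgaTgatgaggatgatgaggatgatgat
Npm1: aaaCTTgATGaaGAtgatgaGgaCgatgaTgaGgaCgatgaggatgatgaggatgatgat
The counting step could therefore split reads between them. Npm1 itself, at chr11:33152287-33163206, had 9196 at 2 weeks in BRAF and 3730 and 3927 in BRAF/PI3K tumors, against 5956 to 10420 at 6 weeks. Its groups overlapped, and its difference was 0.47 ± 0.24 (adjusted p = 0.515).

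Genes of mitosis were mostly higher at 6 weeks. Of 30 G2/M genes tested, 29 were higher and 1 lower, with a median difference of 1.23 against 0.01 over all genes. An unadjusted p under 0.05 was reached by 16, all higher, and 5 had no overlap between the time points, but 0 passed the adjusted test. The mean log2 level of the list was 5.12 in the BRAF library at 2 weeks and 7.22 to 7.72 in BRAF tumors at 6 weeks. In BRAF/PI3K tumors it was 5.92 and 6.16 at 2 weeks and 7.24 to 7.35 in 3 of the libraries at 6 weeks. Replicate 1 of the latter group stood at 6.11, level with the 2 week libraries.

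**Figure D1:**
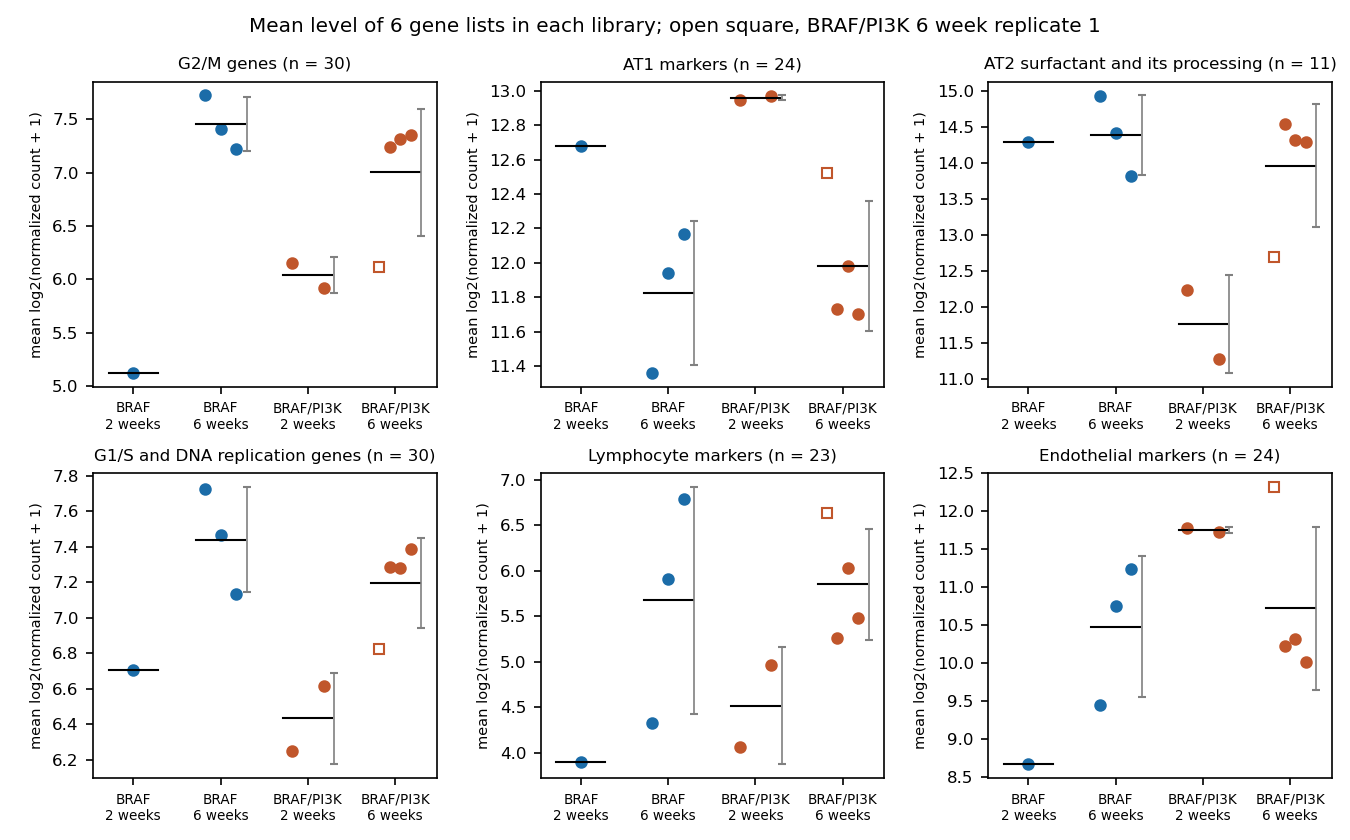
Mean log2(normalized count + 1) of 6 gene lists (vertical axes) in each library, by genotype and week p.i. Points are libraries, horizontal bars group means and vertical bars the SD where a group has more than 1 library, and the open square is BRAF/PI3K 6 week replicate 1. G2/M genes were higher and AT1 markers lower at 6 weeks in both genotypes, while endothelial markers had medians of opposite sign in the genotypes. For surfactant genes the BRAF library at 2 weeks lies within the range of the 6 week libraries and both BRAF/PI3K libraries at 2 weeks lie below it.

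Mki67 (chr7:135689784-135716361) encodes the Ki-67 antigen of cycling cells. It had 439 normalized counts in the BRAF library at 2 weeks and 2348, 2401 and 2450 at 6 weeks. The BRAF/PI3K libraries had 599 and 366 at 2 weeks, and 494, 1659, 1623 and 1529 at 6 weeks. All libraries at 6 weeks but replicate 1 of the BRAF/PI3K group were far above those at 2 weeks. The difference was 1.75 ± 0.40 (exact permutation p = 0.0333, two-sided, weeks permuted within genotype over 60 splits with a smallest p of 0.0167). Its limma adjusted p was 0.201 with all 10 libraries and 0.0377 without that replicate, where the difference was 2.03 ± 0.24.

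Among the other mitotic genes, Top2a, the topoisomerase that untangles replicated DNA, had 232 to 329 at 2 weeks and 209 to 1613 at 6 weeks (1.28 ± 0.46, exact permutation p = 0.0667). Cdc20, an activator of the anaphase-promoting complex (chr4:118432901-118437352), had 6.87 in the BRAF library and 2.09 and 7.18 in the BRAF/PI3K libraries at 2 weeks. At 6 weeks it had 111, 34.0 and 250 in BRAF and 81.5, 31.2, 114 and 35.1 in BRAF/PI3K tumors, with no overlap (3.57 ± 0.68, adjusted p = 0.181). The other genes without overlap were Plk1 and Bub1, kinases of mitosis and its checkpoint, Cenpe, a kinetochore motor, and Nusap1, a spindle protein. Foxm1, a transcription factor of this program, was the exception in direction, at -0.18 ± 0.69 (adjusted p = 0.961).

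**Figure D2:**
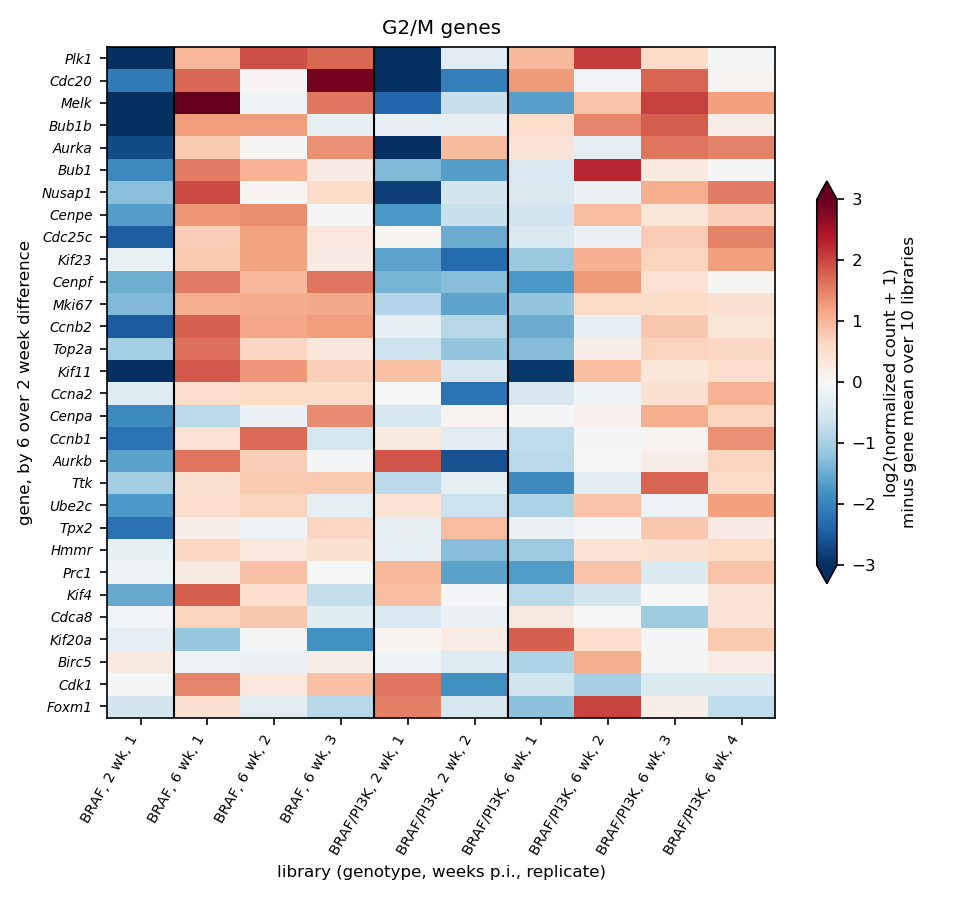
Level of each of the 30 G2/M genes (vertical axis, ordered by their 6 over 2 week difference) in the 10 libraries (horizontal axis), as log2(normalized count + 1) minus the gene's mean over the libraries. Colors end at 3 in either direction, and vertical lines separate the groups. The BRAF library at 2 weeks is lowest for many genes, and BRAF/PI3K 6 week replicate 1 resembles the 2 week libraries for most.

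The 30 genes of G1/S and DNA replication were higher to a lesser extent. Here 23 were higher and 7 lower, with a median of 0.55, 9 at an unadjusted p under 0.05, all higher, and 3 without overlap. Uhrf1, which maintains DNA methylation behind the replication fork (chr17:56303321-56323486), had 6.92, 29.2 and 18.6 at 2 weeks and a lowest, median and highest value of 115, 175 and 448 at 6 weeks. Its difference was 3.48 ± 0.51 (adjusted p = 0.0879), and BRAF/PI3K 6 week replicate 1, at 181, was here like its group. Rrm2, the ribonucleotide reductase subunit that limits nucleotide supply, had 22.7 to 33.2 at 2 weeks and 75.8 to 159 at 6 weeks (2.12 ± 0.33, adjusted p = 0.127). Pcna, the sliding clamp of replication, was the remaining member without overlap (0.62 ± 0.25, adjusted p = 0.393). The other 27 genes of this list overlapped between the time points, as did 25 of the 30 G2/M genes.

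Most cell cycle genes had the same direction in both genotypes. Of the 30 G2/M genes, 23 were higher at 6 weeks in both and 0 were lower in both, with medians of 2.23 in BRAF and 0.75 in BRAF/PI3K tumors. Of the 30 G1/S genes, 18 were higher in both and 3 lower in both, with 11 lower in BRAF and 4 lower in BRAF/PI3K tumors. Over all genes, 25.4% were higher in both and 24.5% lower in both. With the endothelial score as a covariate 4 G2/M genes were called, all higher. Of the 24 endothelial markers, 0 were higher in both genotypes and 1 was lower in both.

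Markers of AT1 cells were lower at 6 weeks. Of 24 tested, 21 were lower and 3 higher, with a median of -0.98. An unadjusted p under 0.05 was reached by 15, all lower, and 9 had no overlap between the time points, while 0 passed the adjusted test. The mean log2 level was 12.68 in the BRAF library and 12.95 and 12.97 in the BRAF/PI3K libraries at 2 weeks, and 11.36 to 12.52 at 6 weeks, so the list as a whole separated the groups. In their summed level, AT1 markers had 309124 at 2 weeks in BRAF and 350107 to 382626 in BRAF/PI3K tumors. At 6 weeks the sums were 128245 to 222914 and, in BRAF/PI3K tumors, 151504 to 177738 apart from replicate 1 at 313892.

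Ager, the receptor for advanced glycation end products and an abundant AT1 membrane protein (chr17:34597862-34600936), had 4930 at 2 weeks in BRAF and 5622 and 6057 in BRAF/PI3K tumors. At 6 weeks it had 2815, 2698 and 3289, and 3915, 3230, 3551 and 3375. No library at 6 weeks reached the lowest at 2 weeks, and the difference was -0.74 ± 0.17 (exact permutation p = 0.0167, the smallest possible; limma adjusted p = 0.193). Hopx, a homeodomain cofactor of AT1 cells, had 4055, 8288 and 7178 at 2 weeks and 1275 to 4936 at 6 weeks. The highest of these was BRAF/PI3K replicate 1, the only library at 6 weeks above the BRAF library at 2 weeks (-1.49 ± 0.40, exact permutation p = 0.0333). Without that library the adjusted p of Hopx was 0.0834.

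Rtkn2 (chr10:67979570-68059740) had the largest difference of the list. It had 5587 in BRAF and 8612 and 9312 in BRAF/PI3K tumors at 2 weeks, and at 6 weeks 665, 1570 and 2200, and 4316, 996, 1909 and 952. Its fold was 4.92 lower at 6 weeks (-2.30 ± 0.48, adjusted p = 0.181), without overlap. Col4a4, a chain of the type IV collagen of the alveolar basement membrane (chr1:82448423-82586849), had 5437, 6022 and 5865 at 2 weeks and 2330 to 3335 at 6 weeks. Unlike in Hopx, the lowest of the latter was BRAF/PI3K replicate 1 (-1.03 ± 0.19, adjusted p = 0.181). Scnn1g, the gamma subunit of the epithelial sodium channel, was the single member called without replicate 1 (adjusted p = 0.0489; 0.235 with all libraries). The remaining members without overlap were Pdpn, Igfbp2, Akap5, Spock2 and Sema3e. Aqp5, a water channel of AT1 cells, was among the 3 higher, at 0.60 ± 0.44 (adjusted p = 0.662).

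**Figure D3:**
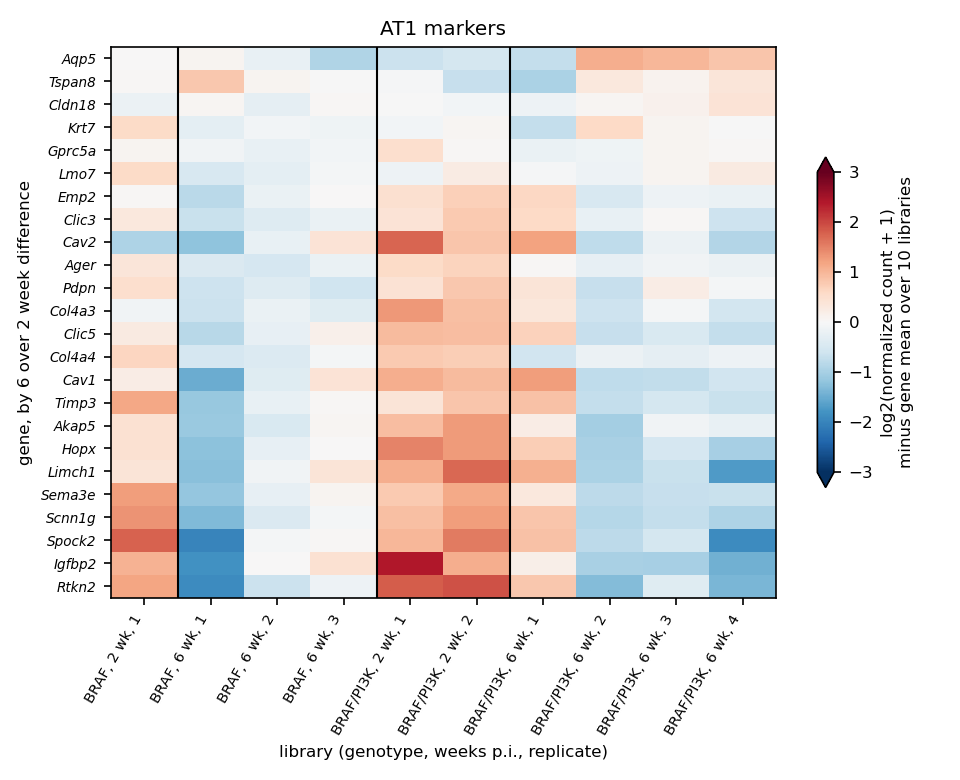
Level of each of the 24 AT1 markers (vertical axis, ordered by difference) in the 10 libraries (horizontal axis), as log2(normalized count + 1) minus the gene's mean. Colors end at 3 in either direction, and vertical lines separate the groups. Most markers are high in the 3 libraries at 2 weeks, and BRAF/PI3K 6 week replicate 1 is above the rest of its group in many.

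AT1 markers were lower in both genotypes for 19 of the 24 genes and higher in both for 2, with medians of -0.74 in BRAF and -1.14 in BRAF/PI3K tumors. With the endothelial score as a covariate 12 were called, all lower. In BRAF tumors, the AT1 sum was lower at 6 weeks while the endothelial sum was higher. In BRAF/PI3K tumors both sums were lower in 3 of the 4 libraries at 6 weeks, and Cav1 and Cav2, which endothelium also expresses, are among these AT1 markers. Further genes lower at 6 weeks were chosen after their values were seen. Scel, a precursor of the cornified envelope, had 3837 to 6278 at 2 weeks and 1328 to 3045 at 6 weeks (-1.33 ± 0.27, adjusted p = 0.181, and 0.0377 without replicate 1). Lama3, a laminin chain, had 4460 to 5561 and then 2047 to 3015 (-0.96 ± 0.20), and Gramd2 had 3761 to 4234 and then 1238 to 2628 (-1.11 ± 0.22, both with an adjusted p of 0.181). Their 6 week values lay below all 2 week values.

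AT2 genes were mostly higher at 6 weeks. Of 11 genes of surfactant and its processing, 10 were higher and 1 lower, with a median of 1.62. An unadjusted p under 0.05 was reached by 9, all higher, 0 passed the adjusted test, and 0 were free of overlap. The mean log2 level of the list was 14.29 in the BRAF library at 2 weeks, within the 12.69 to 14.93 of the 6 week libraries, and 12.24 and 11.28 in the BRAF/PI3K libraries at 2 weeks. The median was 2.49 in BRAF/PI3K and 0.21 in BRAF tumors. Both BRAF/PI3K libraries at 2 weeks and BRAF/PI3K 6 week replicate 1, at 12.69, had the lowest surfactant levels of all libraries. They also had the highest endothelial sums (176137 and 199719 at 2 weeks, and 297127). The part of endothelial RNA in the AT2 differences was not tested. Sftpc, surfactant protein C, whose promoter drove CRE here (chr14:70520949-70524081), had 197400 in the BRAF library at 2 weeks and 392700, 237800 and 164900 at 6 weeks. In BRAF/PI3K tumors it had 38860 and 21170 at 2 weeks, and 82500, 250100, 195700 and 221700 at 6 weeks.

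The BRAF values of Sftpc overlapped and the BRAF/PI3K values did not, with the lowest value at 6 weeks in replicate 1. Its difference over both genotypes was 1.78 ± 0.49 (exact permutation p = 0.0333, adjusted p = 0.276). Sftpa1 and Sftpb, surfactant proteins A1 and B, had differences of 1.62 ± 0.53 (exact permutation p = 0.05) and 1.73 ± 0.68 (exact permutation p = 0.0833). Without the BRAF library at 2 weeks they were 2.58 and 2.85, and without BRAF/PI3K 2 week replicate 2 they were 1.02 and 1.00. The difference of the changes between genotypes was tested for each gene and was 2.26 for Sftpc (adjusted p = 0.473), 2.67 for Sftpa1 (0.381) and 3.09 for Sftpb (0.473), so none passed. With the endothelial score as a covariate 10 of the 11 were called higher (for Sftpc, adjusted p = 0.00247, with an SE of 0.17 in place of 0.49).

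A further 23 AT2 markers were described in the same way, with 21 higher, a median of 1.23, 12 at an unadjusted p under 0.05 and 2 without overlap. These were Cd36, a fatty acid transporter, at 0.88 ± 0.24, and Mfsd2a, a transporter of lysophospholipids, at 3.85 ± 0.70. Mfsd2a had 23.6 in BRAF and 0 and 0.85 in BRAF/PI3K tumors at 2 weeks, and 25.3 to 76.2 at 6 weeks. Lcn2 (lipocalin 2) had 290.5 to 3747 at 2 weeks and 1315 to 7761 at 6 weeks (1.46 ± 0.58, exact permutation p = 0.0833). Lyz2, a lysozyme that AT2 cells and macrophages share, had 158900 in BRAF and 47730 and 22790 in BRAF/PI3K tumors at 2 weeks, and 46410 to 104600 at 6 weeks. Its difference was -0.95 in BRAF and 1.14 in BRAF/PI3K tumors and 0.39 ± 0.41 in all (exact permutation p = 0.5), and 32.8% of its 31-base stretches are shared with Lyz1.

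Of 21 transcription factors of the lung lineage tested, 15 were higher and 6 lower, with a median of 0.53, and of 0.80 without BRAF/PI3K 6 week replicate 1. In BRAF tumors 8 were higher and 13 lower (median -0.09), and in BRAF/PI3K tumors 17 higher and 4 lower (median 0.95). Nkx2-1, a master regulator of lung identity, had 4584 in BRAF and 2552 and 1964 in BRAF/PI3K tumors at 2 weeks, and 3352 to 4825 and 2308 to 5538 at 6 weeks. Its groups overlapped (0.43 ± 0.31, exact permutation p = 0.3). Foxa1, a pioneer factor of foregut epithelium, had 152 to 677 and 112 to 706 in the 2 time points (-0.01 ± 0.60, exact permutation p = 0.983), and its sign depended on the processing. Its paralog Foxa2 had 180 in BRAF and 34.1 and 45.1 in BRAF/PI3K tumors at 2 weeks, and 215 to 340 and 115 to 196 at 6 weeks (1.47 ± 0.36, exact permutation p = 0.0167, adjusted p = 0.235). Within each genotype every 6 week library was thus above the 2 week libraries.

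Id2, an inhibitor of differentiation factors present in distal lung progenitors, and Etv5 were the members without overlap (1.79 ± 0.40 and 1.16 ± 0.26). Ppargc1a, which encodes the coactivator PGC1α, had 772 in the BRAF library at 2 weeks and 1088, 650 and 1017 at 6 weeks. The BRAF/PI3K values were 177 and 51.9 at 2 weeks, and 117, 282, 268 and 301 at 6 weeks. All BRAF/PI3K libraries were below all BRAF libraries at both time points, and the difference with time was 0.87 ± 0.45 (exact permutation p = 0.117), and 0.29 without BRAF/PI3K 2 week replicate 2. Of 19 gastric, gut and progenitor genes tested, 12 were higher and 7 lower, with a median of 0.18 and differences from -2.01 to 4.54, and in BRAF tumors 11 were lower. The 1 member without overlap, Igf2bp2, an RNA-binding protein, was lower (-1.51 ± 0.51, adjusted p = 0.326). At the upper end, Hnf4a, a factor of gut and liver epithelium, had 114 in BRAF and 0 and 1.43 in BRAF/PI3K tumors at 2 weeks, and 37.9 to 510 at 6 weeks (4.54 ± 1.16, adjusted p = 0.249). Gkn2, a gastrokine, had 142, 2.05 and 4.01 at 2 weeks and 296 to 1366 at 6 weeks in all but BRAF/PI3K replicate 1, at 5.10.

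Genes of the signaling pathways themselves were mixed. Of 26 MAPK feedback and output genes, 16 were higher and 10 lower, with a median of 0.17, near that of all genes. Etv5, an ERK-induced factor that sustains AT2 cells (chr16:22381309-22439719), had 1599, 1572 and 1087 at 2 weeks and 4684, 2817 and 2360, and 3045, 4250, 2932 and 2514 at 6 weeks. All 7 were above the 3, and the difference of 1.16 ± 0.26 had an exact permutation p of 0.0167 (adjusted p = 0.198). Its relative Etv1 was lower (-0.96 ± 0.38, adjusted p = 0.379). Dusp6, an ERK phosphatase, had 0.87 ± 0.44 (exact permutation p = 0.133), and Spry4, a feedback inhibitor, -0.29 ± 0.46 (exact permutation p = 0.550), and -0.05 without BRAF 6 week replicate 3. Ccnd1, the D-type cyclin through which ERK signals to the cell cycle, had 4192 in BRAF and 2297 and 1957 in BRAF/PI3K tumors at 2 weeks, and 4083 to 8587 at 6 weeks (1.27 ± 0.32, adjusted p = 0.235).

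Cdkn1a, which encodes the cyclin-dependent kinase inhibitor p21 (chr17:29090976-29100727), was higher together with the cell cycle genes. It had 1835 in the BRAF library at 2 weeks and 3954, 2644 and 1911 at 6 weeks. The BRAF/PI3K libraries had 322 and 628 at 2 weeks, and 1704, 4364, 4095 and 6334 at 6 weeks. Within each genotype every library at 6 weeks was above those at 2 weeks (2.15 ± 0.53, exact permutation p = 0.0167, adjusted p = 0.235). The list of 22 CDK inhibitor and p53 target genes had a median of 0.14, with 4 at an unadjusted p under 0.05, all higher. In BRAF tumors 18 were higher and 4 lower (median 0.45), and in BRAF/PI3K tumors 8 higher and 14 lower (median -0.23), a difference not tested for the list. Those at an unadjusted p under 0.05 beside Cdkn1a were Ccng1, Eda2r and Zmat3. Cdkn2a did not pass the filter on low values.

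Of 13 EGF family members tested, 6 were higher and 7 lower, with a median of -0.04, and without BRAF/PI3K 6 week replicate 1 there were 9 higher and 4 lower (median 0.49). In BRAF tumors 5 were higher and 8 lower (median -0.51) and in BRAF/PI3K tumors 11 higher and 2 lower (median 0.71), a difference not tested for the list. Nrg1, neuregulin 1, a ligand of ERBB3 and ERBB4, had 391 to 706 at 2 weeks and 28.6 to 162 at 6 weeks, without overlap (-2.67 ± 0.55, adjusted p = 0.181). The receptor gene Egfr had 3130, 1511 and 1834 at 2 weeks and 301 to 1105 at 6 weeks except in BRAF/PI3K replicate 1, at 1743 (-1.64 ± 0.47, adjusted p = 0.276, and 0.0567 without that library). The ligands Ereg and Btc, at 2.46 ± 0.99 and 1.93 ± 0.59, and the receptor gene Erbb3, at 0.88 ± 0.40, were higher. Areg was not analysed here. Of 29 genes of PI3K signaling 15 were higher (median 0.01), with 20 higher in BRAF and 11 in BRAF/PI3K tumors. There were 2 without overlap, Igf1r, the receptor of insulin-like growth factor 1, which was lower (-0.32 ± 0.17, adjusted p = 0.534), and the regulatory subunit gene Pik3r3, with 366 to 1077 at 2 weeks and 1363 to 2398 at 6 weeks (1.44 ± 0.32, adjusted p = 0.192).

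Lymphocyte and myeloid markers were mostly higher at 6 weeks, while of 8 neutrophil markers tested 4 were higher and 4 lower (median -0.07). Of 23 lymphocyte markers, 21 were higher and 2 lower, with a median of 1.06 and 7 at an unadjusted p under 0.05, while 8 were at 0 in some library. Their summed level was 1182 in BRAF and 2099 to 2723 in BRAF/PI3K tumors at 2 weeks, and 1465 to 5274 and 1492 to 4381 at 6 weeks. Cd3e, a chain of the T cell receptor complex, had 38.9 in BRAF and 18.2 and 18.6 in BRAF/PI3K tumors at 2 weeks. At 6 weeks it had 73.8, 163 and 244, and 334, 138, 198 and 70.6, without overlap (2.62 ± 0.54, adjusted p = 0.181). Gzma and Nkg7, of cytotoxic cells, were at 0 in 2 of the 3 libraries at 2 weeks and above 0 in all 7 at 6 weeks.

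Of 22 macrophage and myeloid markers tested, 17 were higher, with a median of 0.63, and 3 reached an unadjusted p under 0.05 as higher and 1 as lower. Cd68 had 62.8 to 510 and 80.3 to 420, with overlap (0.73 ± 0.66, exact permutation p = 0.383). Of 10 MHC class II genes, 7 were higher, with a median of 0.86. AT2 cells as well as myeloid cells express class II genes, and Cd74, the invariant chain, had 28810 in BRAF and 6916 and 5067 in BRAF/PI3K tumors at 2 weeks, and 26660 to 54400 and 11670 to 36040 at 6 weeks (1.44 ± 0.41, adjusted p = 0.279). H2-Ab1 gave 0.63 ± 0.42 (exact permutation p = 0.233). Of 37 interferon-stimulated genes 16 were higher and 21 lower (median -0.09). In BRAF tumors 28 were higher (median 0.48) and in BRAF/PI3K tumors 28 were lower (median -0.61), a difference not tested for the list. Isg15 gave -0.15 ± 0.50 (exact permutation p = 0.767).

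Stromal markers were mostly lower. Of 23 fibroblast, muscle and mesothelial markers, 18 were lower and 5 higher, with a median of -0.72 and 5 at an unadjusted p under 0.05, all lower, but 0 without overlap. Their sums were 24392 in BRAF and 54690 to 82950 in BRAF/PI3K tumors at 2 weeks, and 11449 to 29389 and, in BRAF/PI3K tumors, 17149 to 66407 at 6 weeks, the highest in replicate 1. Col1a1, a collagen of fibroblasts, had 867, 1453 and 2405 at 2 weeks and 379 to 1479 at 6 weeks (-0.96 ± 0.41, exact permutation p = 0.100). Endothelial markers had a median of 0.02, with 12 of 24 higher, and of -0.23, with 6 higher and 18 lower, without BRAF/PI3K 6 week replicate 1. Pecam1 gave -0.03 ± 0.67 (exact permutation p = 0.983). In BRAF/PI3K tumors fibroblast, AT1 and endothelial markers all had negative medians (-1.17, -1.14 and -1.01). The part of fibroblast markers in the AT1 and AT2 results was not tested.

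Among stress and metabolic genes, differences over both genotypes were small as lists and larger for single members. Of 20 ER chaperone and unfolded protein response genes, 15 were higher, with a median of 0.41 and 3 without overlap. Hspa5, the chaperone BiP, had 15440, 9138 and 12060 at 2 weeks and 17250 to 28330 at 6 weeks (0.87 ± 0.22, adjusted p = 0.249). Of 20 NRF2 and antioxidant genes 13 were higher (median 0.33), and 2 members separated the time points in opposite directions. Gclc, the catalytic subunit that makes the precursor of glutathione, had 1865 to 2760 and then 3488 to 9803 (1.5 ± 0.33, adjusted p = 0.192). Prdx6, a peroxiredoxin with phospholipase activity, had 7997 to 10690 and then 1916 to 7483 (-1.43 ± 0.35, adjusted p = 0.235).

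The ATF4 and serine synthesis list had a median of 0.49 over 19 genes, with 6 higher and 2 lower at an unadjusted p under 0.05. Phgdh and Psat1, enzymes of serine synthesis, gave 2.98 ± 0.95 and 1.44 ± 0.55, whereas Ddit3, which encodes the stress factor CHOP, gave -1.17 ± 0.49. Lipid and cholesterol synthesis genes had a median of 0.25, with Scd1 and Fasn, of fatty acid synthesis, at 1.35 ± 0.40 and 1.19 ± 0.38. Nuclear genes of the respiratory chain were near level, with a median of 0.14 over 45 genes. The 13 mitochondrial genes had a median of -0.35. In BRAF tumors it was -1.39, with all 13 lower, and rests on a single library at 2 weeks. In BRAF/PI3K tumors it was 0.30, with 10 higher and 3 lower, the value left when the BRAF library at 2 weeks is left out. The difference between genotypes was not tested for the list. Housekeeping genes had a median of 0.10.

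**Figure D4:**
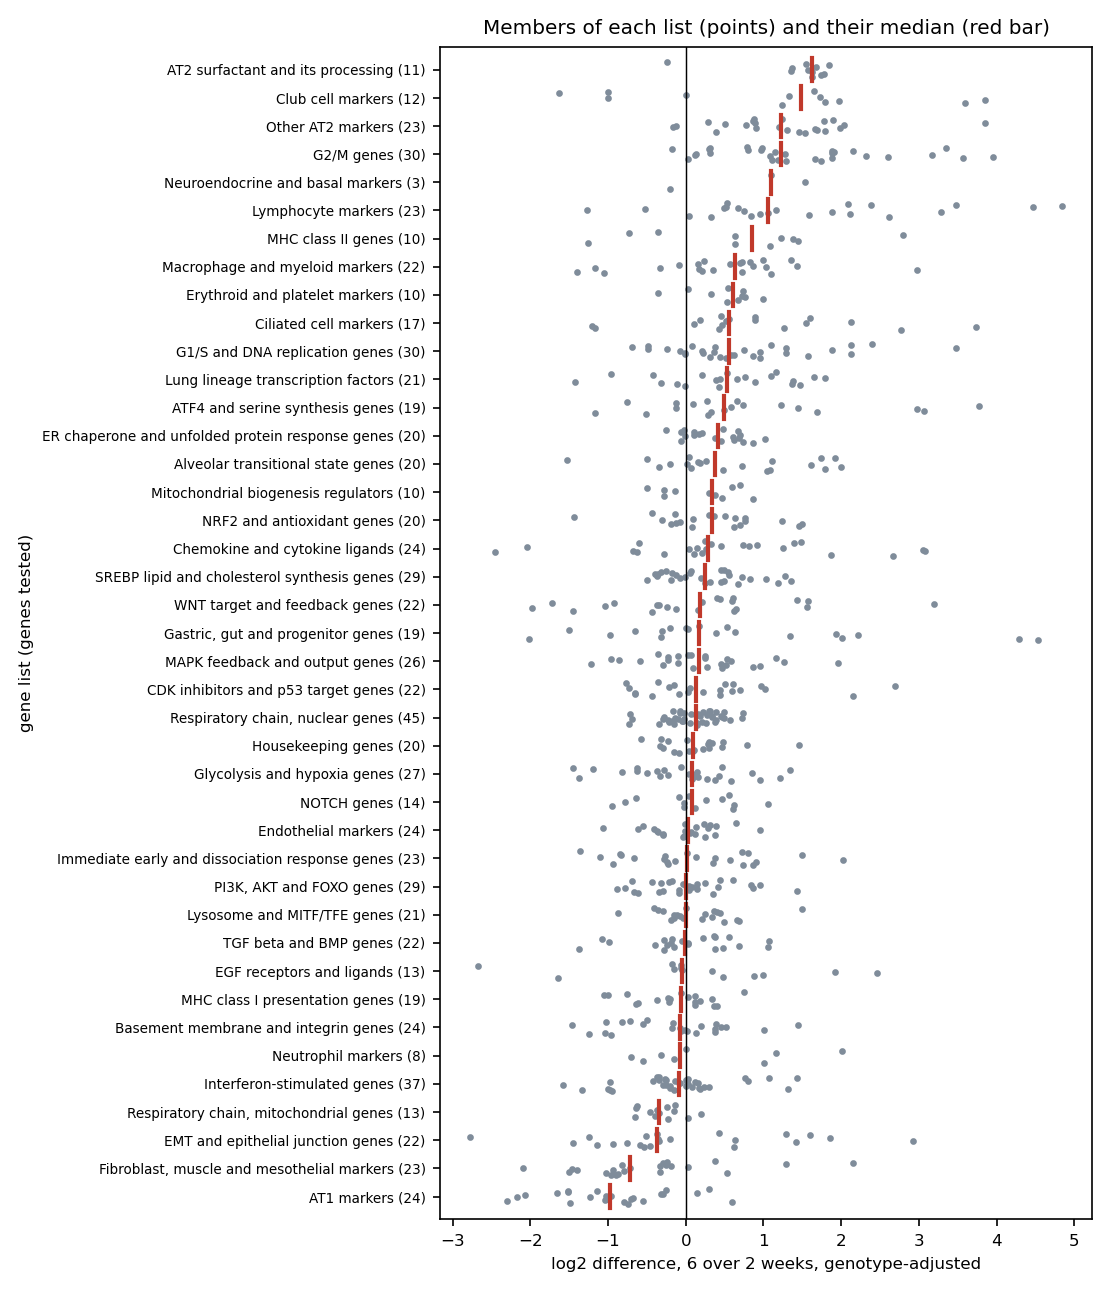
Difference of 6 over 2 weeks on the log2(normalized count + 1) scale, adjusted for genotype (horizontal axis), for the tested members of 41 gene lists (all but the Y-linked genes; vertical axis, number tested in parentheses). Points are genes, red bars list medians, and the vertical line marks 0. Surfactant, other AT2, club cell and G2/M lists had the highest medians and AT1 and fibroblast lists the lowest.

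Club cell markers had a median of 1.48 over 12 genes, and 6 of the 14 listed were at 0 in some library. Their summed level was 37190 to 48891 in BRAF/PI3K libraries at 2 weeks and 13792 to 18508 at 6 weeks apart from replicate 1, at 57053, and without that replicate 2 markers were called higher and 4 lower in BRAF/PI3K tumors. In BRAF tumors the sum was 21571 at 2 weeks and 15208 to 38184 at 6 weeks. Scgb1a1, the main secretoglobin of club cells, had 1280 to 6448 at 2 weeks and 3223 to 9846 at 6 weeks (1.24 ± 0.45, adjusted p = 0.348), while Aldh1a1 and Gsta3 were lower. Transitional states between AT2 and AT1 cells were represented by 20 genes with a median of 0.38, and of 0.58 without BRAF/PI3K 6 week replicate 1, where 7 in place of 2 were higher at an unadjusted p under 0.05. The median was 0.02 in BRAF tumors and 0.73 in BRAF/PI3K tumors. Krt8, a keratin of that state, had 1232 at 2 weeks and 1019 to 1183 at 6 weeks in BRAF tumors. Its BRAF/PI3K values were 334 and 301 at 2 weeks, and 338 in replicate 1 and 1392 to 1836 in the others at 6 weeks (1.05 ± 0.52, exact permutation p = 0.283). Of immediate early genes, Fos gave 0.87 ± 0.36 (exact permutation p = 0.05) with its highest value, 1361, in BRAF/PI3K replicate 1, and the list had a median of 0.02. Axin2, a target of WNT signaling, gave -0.43 ± 0.43 (exact permutation p = 0.400), and -0.71 without BRAF/PI3K 6 week replicate 1.

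In BRAF/PI3K tumors alone, 4 libraries against 2, 2 of 17423 genes rose (0.0115%). They were Gja3 (connexin 46, chr14:57034460-57058100) and Ptgs2, which encodes cyclooxygenase 2 (chr1:150100031-150108227), both with an adjusted p of 0.0454. Leaving out any of the 5 libraries other than 6 week replicate 1 ended both calls. Gja3 had 0.97 and 0 normalized counts at 2 weeks and 96.6, 265, 299 and 313 at 6 weeks. In BRAF tumors it had 311 at 2 weeks and 191 to 578 at 6 weeks, so its groups overlapped there. Ptgs2 had 28.2 and 46.7, and then 559, 1367, 842 and 1236, and in BRAF tumors 372 and then 453 to 903. The difference between the genotypes in these changes did not pass the test for either gene (adjusted p = 0.198 for Gja3 and 0.345 for Ptgs2). Without replicate 1 at 6 weeks, 589 genes were called higher (3.38%) and 831 lower (4.76%) of 17444.

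The lists were read in the same way within BRAF/PI3K tumors without that replicate. There 10 of 11 surfactant genes and 11 of 23 other AT2 markers were called higher, 16 of 24 AT1 markers lower and 1 higher, 4 of 30 G2/M genes higher, 9 of 23 fibroblast markers lower and 19 of 24 endothelial markers lower. Among lung lineage factors 9 were called higher and 3 lower of 21. The same genotype with all 4 libraries gave 0 calls in each of these lists. The medians of the G2/M, AT1 and surfactant lists had the same sign within BRAF/PI3K tumors, at 0.75, -1.14 and 2.49. Their adjusted calls depended on leaving out 1 library. In these lists that library was the 6 week one nearest the 2 week libraries of its genotype. Leaving it out moved the medians to 1.23, -1.38 and 2.9 by itself, so the calls are no independent test.

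Across all 17501 genes the changes of the genotypes were nearly unrelated, with 49.9% of genes of the same sign and a Pearson correlation across genes of 0.041 (Spearman 0.020). Genes are not independent replicates, and each axis rests on few libraries, 1 of them at 2 weeks in BRAF. Of the genes called higher in BRAF/PI3K tumors without replicate 1, 588 were among the 17501 tested over both genotypes, and 327 of these (55.6%) were higher in BRAF tumors too, against 50.5% of all genes. Of the 831 called lower, 416 (50.1%) were lower, against 49.5%. The difference of the changes was called for 2 genes (0.0114%), Gm14305 and Gm2446, of which 94.9% and 100% of the 31-base stretches occur in other transcripts.

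**Figure D5:**
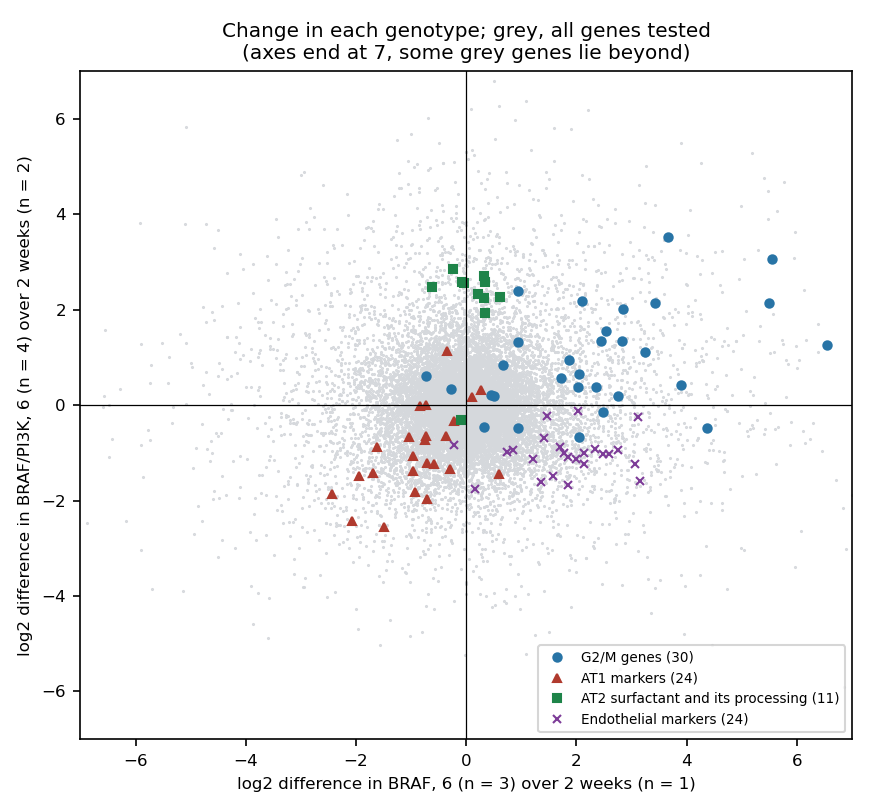
Difference of 6 over 2 weeks in BRAF tumors (horizontal axis, 3 libraries against 1) and in BRAF/PI3K tumors (vertical axis, 4 against 2) on the log2(normalized count + 1) scale. Grey points are all genes tested, of which 10 lie beyond the axes, and colored symbols are members of 4 lists. G2/M genes lie mostly in the upper right, AT1 markers in the lower left, surfactant genes above 0 on the vertical axis near 0 on the horizontal one, and endothelial markers in the lower right.

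The genes described last were chosen after their values were seen, as those with the lowest p over both genotypes. Alkal1, a secreted ligand of the ALK and LTK receptors (chr1:6359218-6394731), had 10.1 in BRAF and 0.97 and 2.36 in BRAF/PI3K tumors at 2 weeks. At 6 weeks it had 146, 170 and 66.3, and 38.4, 59.8, 34.3 and 56.6 (3.92 ± 0.49, adjusted p = 0.0511). Dsc2, a cadherin of desmosomes, had 2.99, 0 and 1.25, and then 21.0 to 126 (4.92 ± 0.68, adjusted p = 0.0879). Both were without overlap and were called without BRAF/PI3K replicate 1 (adjusted p = 0.0377 and 0.0489).

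Epb41l3, a membrane skeleton protein (chr17:69075683-69289989), had the lowest p among genes lower at 6 weeks. It had 1438 in BRAF and 1004 and 1526 in BRAF/PI3K tumors at 2 weeks, and 426, 610 and 558, and 417, 363, 338 and 336 at 6 weeks (-1.66 ± 0.24, adjusted p = 0.0879, and 0.0489 without replicate 1). Hs2st1, a heparan sulfate sulfotransferase, had 8750 to 14430 and then 3389 to 5440 (-1.25 ± 0.22). Tef, a clock-controlled transcription factor, had 3824 to 6434 and then 1002 to 3462 (-1.36 ± 0.26). Popdc3 had 512 to 755 and then 8.74 to 123 (-3.88 ± 0.78), and the last 3 each had an adjusted p of 0.181. Higher genes included Cdca7, a MYC target (2.49 ± 0.43), Cxcl17, a mucosal chemokine (3.08 ± 0.56), and Pla2g1b, a secreted phospholipase (2.38 ± 0.45), also with an adjusted p of 0.181.

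At 12 weeks p.i., where mice had received a lower titer, 4 libraries of the table are set beside these values without a comparison. Gm14681 had 129 to 259 there, Mki67 595 to 1828, Uhrf1 11.2 to 107, Sftpc 251600 to 383000, Ager 2523 to 3563, Rtkn2 186 to 1682, Cdkn1a 3599 to 6532 and Alkal1 96.7 to 121. In both BRAF/PI3K libraries at 12 weeks the Y-linked genes went against the labelled sex (Ddx3y was at 55.4 in the library with the male label and at 1420 in the other).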

How the data were processed

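RNA of FACS-sorted tdTomato+ lung cells, 1 mouse per library, was sequenced as single-end reads. The deposited signal values are normalized counts per gene: the authors quantified transcripts with Salmon and normalized with DESeq2 size factors on Galaxy, with default settings (versions not given in the sources used here; GRCm38 per the submitters' processing notes). Tables of the authors' own comparisons (fold changes and p-values) and the table of another experiment were not used. Count tests could not be run, since reads could not be recovered.

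Here log2(normalized count + 1) values of genes with a mean of at least 10 over the 10 libraries were fitted with limma 3.58.1 (R 4.3.3, trended variance), with week and genotype as terms, and adjusted by Benjamini-Hochberg (threshold 0.05). Single genes were tested by two-sided exact permutation of weeks within genotype in Python 3.11.15. The scripts were tested on simulated data. Coordinates and transcripts are from GENCODE vM21. Comparison, 42 gene lists (893 genes) and 27 named genes were chosen with earlier results of these data known, and 25 of the 27 passed the filter. Other genes were named after their values were seen, as the 12 with the lowest p in each direction with a mean above 40, as called genes, or as list members. Alternatives were the pseudocount, the filter, quantile normalization, sex, no genotype term, a replicate block, array weights, no variance trend, all 14 libraries and leaving out each library.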

Additional observations from a re-analysis of the deposited data

Results flagged for a closer look

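Among the 4 BRAF/PI3K libraries at 6 weeks, single libraries lay far from the other 3 in 13 of 66 values examined, where chance gives about 1 in 20 for a single value. The 66 values are not independent, since some of the genes are members of the lists. Replicate 1 was the distant library in 11 of them. Its mean log2 level was the lowest of the group for surfactant genes (12.7) and G2/M genes (6.11), and the highest for immediate early genes (9.61), endothelial markers (12.3) and basement membrane and integrin genes (10.96). Among single genes its log2 value was lowest for Sftpb (13.3), Ppargc1a (6.88), Krt8 (8.4) and Mki67 (8.95), and highest for Fos (10.4) and Axin2 (9.72). Replicate 2 was lowest for neutrophil markers (4.78) and highest for SREBP lipid and cholesterol synthesis genes (9.63).

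For 2 genes the change with time differed between the genotypes by limma's interaction test (adjusted p = 0.0198 for each), in which a single library stands for BRAF at 2 weeks. Both calls were lost without BRAF/PI3K 2 week replicate 1, without any of the BRAF libraries at 6 weeks and without BRAF/PI3K 6 week replicate 3, and that of Gm14305 also without BRAF/PI3K 6 week replicates 2 or 4. The change of Gm14305 was 9.24 higher in BRAF/PI3K than in BRAF tumors on the log2 scale, with 138 normalized counts in the BRAF library at 2 weeks, 0 in the 3 at 6 weeks, 30.8 and 59.7 in BRAF/PI3K at 2 weeks and 126 to 296 at 6 weeks. For Gm2446 the difference was -12.8, with 0 and then 75.9 to 180 in BRAF, and 72.1 and 93.1 and then 0 to 0.957 in BRAF/PI3K tumors. Other transcripts hold 94.9% of the 31-base stretches of Gm14305 and 100% of those of Gm2446.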

How the results depend on the processing

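With 10 libraries, 1 gene was called at 6 against 2 weeks. The count was 0 with all genes with any count (2406 at an unadjusted p under 0.05), 0 with sex as a covariate (1835), 9 with all 14 libraries, 2 with no variance trend, and 440 with the endothelial score as a covariate, chosen after seeing the data. Leaving out single libraries gave 0 to 15 calls by limma. There were 15 without BRAF/PI3K 6 week replicate 1, 13 without the BRAF library at 2 weeks and 3 without BRAF 6 week replicate 3. There were 2 without BRAF/PI3K 2 week replicate 1. Without BRAF/PI3K 2 week replicate 2 the only call was AC149222.1 (8.03), not Gm14681. Without BRAF 6 week replicates 1 or 2 or BRAF/PI3K 6 week replicates 2, 3 or 4 there were 0 (1555 to 1823 unadjusted). In BRAF/PI3K tumors alone (2 calls) the range was 0 to 1420, with 1420 without 6 week replicate 1, 7 (neither Gja3 nor Ptgs2) without 2 week replicate 2 and 0 (1075 to 1455 unadjusted) without any other library. For the genotype difference (2 calls) it was 0 to 159, with 159 without BRAF/PI3K 6 week replicate 1, 11 without BRAF/PI3K 2 week replicate 2, 1 without BRAF/PI3K 6 week replicate 2, 2 (Gm14305 not among them) without BRAF/PI3K 6 week replicate 4 and 0 (1202 to 1733 unadjusted) without BRAF/PI3K 2 week replicate 1, any BRAF 6 week library or BRAF/PI3K 6 week replicate 3. It could not be fitted without the BRAF library at 2 weeks. The cause was not tested.

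Same-numbered libraries of different groups correlated at -0.287 to 0.0711 in their deviations from group means, so the numbers are not a pairing. With a replicate block 0 genes were called over both genotypes (1102 unadjusted) and 0 in BRAF/PI3K tumors alone (776 unadjusted), and the differences of Foxa1 (0.32), Spry4 (0.27), Pecam1 (0.21) and Isg15 (0.20) changed sign.

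No gene that changed sign had passed the test over both genotypes. Foxa1 was 0.0145 with quantile normalization, 0.0275 with no genotype covariate, 0.43 with array weights and -0.50 to 0.58 when single libraries were left out. Pecam1 was 0.0771 with quantile normalization, 0.0187 with sex, and -1.09 to 0.35 without single libraries. Over the same leave-outs Lyz2 ran from -0.14 to 1.14, Isg15 from -0.72 to 0.38, Gm14305 from -2.59 to 2.12 and Gm2446 from -5.91 to 0.36. Single libraries also moved the size of others. Without the BRAF library and then without BRAF/PI3K replicate 2 at 2 weeks, Lcn2 was 2.21 and 0.92, Nkx2-1 0.80 and 0.20, H2-Ab1 1.25 and 0.30, Cd68 0.25 and 0.17, and Spry4 -0.44 and -0.19. Cd68 was 1.61 without BRAF/PI3K 2 week replicate 1, Axin2 -0.23 without BRAF/PI3K 2 week replicate 2, and Krt8 1.74 and Dusp6 1.35 without the BRAF library at 2 weeks.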
